A study of Mus musculus with 44 samples.

Results

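The nuclear genes of the mitochondrial respiratory chain were followed through bleomycin-induced skin fibrosis and recovery in the mouse. The members were chosen by symbol (Ndufa, Ndufb, Ndufc, Ndufs, Ndufv, Sdha to Sdhd, Uqcr, Cox4 to Cox8 and Atp5), as protein-coding genes with a mean normalized count above 3 over all mice. The mean level therefore chose the members, and their presence above that level is a description. Of 104 matching symbols, 91 were members, out of 17037 genes with a mean above 3 and 43411 genes in the table. They comprised 36 genes of complex I, 4 of complex II, 8 of complex III, 18 of complex IV, 17 of complex V and 8 Ndufaf genes, which encode complex I assembly factors rather than subunits. The complex was assigned by symbol, so not every other gene need encode a structural subunit. The remaining symbols were 11 processed pseudogenes and the coding genes Cox7b2 (mean normalized count 0.126) and Cox8c (0.0551), the latter pair lying far below the level. The lowest member was Cox4i2, with a mean of 32.1. Among the pseudogenes, Ndufb4c had a mean of 545 and its parent Ndufb4 one of 297, and reads of such near-identical copies cannot be assigned with certainty.

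RNA was from back skin of 44 female C57Bl/6 wild-type mice, 8 weeks old at the start, injected subcutaneously each day with 100 µL. A saline group held 10 mice, and 10 mice each received bleomycin at 1 U/mL for 2 or 4 weeks. The concentration is that of the labels, and the sources used here do not all give the same one. After 4 weeks of bleomycin, 6 mice recovered for 6 weeks and 8 mice for 10 weeks. The sources used here do not give the week at which the saline mice were sampled, so time since the start and recovery cannot be told apart in the comparisons of recovery with saline. Between 8509094 and 15285577 reads per mouse were assigned to genes. The keratinocyte markers Krt5, Krt14, Krt1 and Krt10 and the fibroblast markers Pdgfra, Col1a1, Dcn and Lum each had over 3 reads in every mouse, so the labelled tissue was skin by its markers. The biopsies also held muscle: 13 of the 14 skeletal muscle markers were found, and all 13 had over 3 reads in every mouse. In whole tissue, fewer cells of a type and less RNA per cell cannot be told apart. Mouse 2 of the 2-week bleomycin group and saline mouse 1 stood apart, with the lowest median correlations to their own groups (0.9378 and 0.9421), and saline mouse 1 had the lowest muscle marker level of all mice.

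The respiratory chain sits in the inner mitochondrial membrane. Complexes I and II pass electrons from NADH and succinate to ubiquinone, complex III passes them to cytochrome c, complex IV reduces oxygen to water, and complex V makes ATP from the resulting proton gradient. Complexes I, III, IV and V hold subunits from mitochondrial DNA beside the nuclear ones, while complex II is wholly nuclear-encoded. Several complex IV positions are filled by paralogs that differ between tissues. Cox6a2, Cox7a1 and Cox8b are the isoforms of heart and skeletal muscle, and Cox6a1, Cox7a2 and Cox8a are their widely expressed partners. Cox6b2 is known as a testis isoform, Cox4i2 as a hypoxia-responsive isoform, and Ndufa4l2 as a hypoxia-inducible relative of Ndufa4, a protein now counted with complex IV.

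Promoters from the isoform pairs are shown because members of these pairs separated below. The sequences run from 250 bases before to 50 bases after the transcript start (RefSeq, GRCm38.p6), and 73 of 91 members had an entry, with 78 entries in all. Cox6a2 and Ndufa4l2 were among the members without an entry, so their pairs could not be compared. Capitals mark matches on either strand to an E-box (CANNTG) or to the palindromic NRF1 motif. No match to the ERR motif (AAGGTCA) or the MEF2 motif was found in these windows. The positions were chr7:30183921-30184220 (+ strand) for Cox7a1, chr7:140900397-140900696 (- strand) for Cox8b, chr9:79759804-79760103 (- strand) for Cox7a2, chr19:7217567-7217866 (- strand) for Cox8a and chr5:115348909-115349208 (- strand) for Cox6a1.
Cox7a1: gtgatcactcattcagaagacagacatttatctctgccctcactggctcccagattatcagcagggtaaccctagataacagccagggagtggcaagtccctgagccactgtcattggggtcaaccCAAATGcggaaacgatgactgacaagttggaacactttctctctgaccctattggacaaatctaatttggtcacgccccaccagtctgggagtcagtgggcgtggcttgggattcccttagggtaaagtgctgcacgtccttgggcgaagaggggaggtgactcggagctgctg
Cox8b: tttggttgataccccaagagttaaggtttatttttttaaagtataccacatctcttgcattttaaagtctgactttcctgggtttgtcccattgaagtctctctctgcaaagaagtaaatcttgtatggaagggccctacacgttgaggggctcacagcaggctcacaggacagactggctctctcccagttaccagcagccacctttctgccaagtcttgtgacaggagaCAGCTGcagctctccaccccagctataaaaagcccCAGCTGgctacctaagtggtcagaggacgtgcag
Cox7a2: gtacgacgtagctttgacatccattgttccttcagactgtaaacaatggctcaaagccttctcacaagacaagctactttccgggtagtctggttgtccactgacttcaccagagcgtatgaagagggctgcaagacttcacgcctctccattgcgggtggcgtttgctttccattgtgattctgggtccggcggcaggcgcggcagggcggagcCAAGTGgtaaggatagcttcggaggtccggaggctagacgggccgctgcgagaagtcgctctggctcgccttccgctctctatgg
Cox8a: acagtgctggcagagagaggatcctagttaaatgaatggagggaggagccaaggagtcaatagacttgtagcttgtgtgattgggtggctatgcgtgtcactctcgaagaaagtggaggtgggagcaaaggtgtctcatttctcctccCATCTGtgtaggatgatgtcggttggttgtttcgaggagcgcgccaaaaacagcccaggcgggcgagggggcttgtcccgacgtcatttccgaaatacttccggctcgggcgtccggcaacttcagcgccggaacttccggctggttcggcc
Cox6a1: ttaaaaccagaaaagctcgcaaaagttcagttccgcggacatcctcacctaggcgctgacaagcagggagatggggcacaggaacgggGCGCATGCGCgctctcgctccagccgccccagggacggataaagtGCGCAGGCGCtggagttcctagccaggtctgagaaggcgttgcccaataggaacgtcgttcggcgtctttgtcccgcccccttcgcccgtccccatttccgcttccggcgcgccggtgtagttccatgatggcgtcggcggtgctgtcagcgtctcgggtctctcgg
Cox7a1 and Cox8b, the muscle isoforms with an entry, held 7 and 2 CpG dinucleotides in this window, against 20 in Cox7a2, 19 in Cox8a and 32 in Cox6a1. The median over member promoters was 19.5 CpG (range 2 to 43), and 7 over all 32851 promoters. The NRF1 motif was present in 25.6% of member promoters and in 4.6% of all promoters, and Cox6a1 held 2 copies. The ERR motif was present in 10.3% of member promoters and 4.72% of all, the E-box in 69.2% and 72.3%, and the MEF2 motif in 2.56% and 3.69%. These matches are letters only, and no binding was measured.

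In saline skin the members spanned a wide range once divided by exon length. On the scale of normalized counts per kb of exon, the catalytic subunits of complex V were highest, at 2827 ± 115 (SD, n = 10) for Atp5a1 and 2696 ± 140 for Atp5b. The median member was at 1354 in complex IV, 1273 in complex III, 1058 in complex V, 702 in complex II and 545 in complex I. The assembly factors were lower, with a median of 61.2 and none above 151. RNA of the muscle isoforms Cox6a2 and Cox8b was of the same order as that of their partners, and no protein was measured. Cox6a2 was at 1713 ± 404 and Cox6a1 at 2073 ± 512, and Cox8b was at 1626 ± 443 and Cox8a at 2582 ± 677. Cox7a1 was lower than Cox7a2 (480 ± 122 and 1278 ± 241). Ndufa4l2 (1243 ± 501) was near Ndufa4 (1423 ± 222), within 1 SD of each other. Cox6b2 (60.7 ± 13.5) and Cox4i2 (32.8 ± 12.7) were minor forms. The members together took a median of 1.09% of reads in saline mice (1.03 to 1.3%), and the 13 genes of mitochondrial DNA took 3.48% (2.62 to 4.18%).

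**Figure D1:**
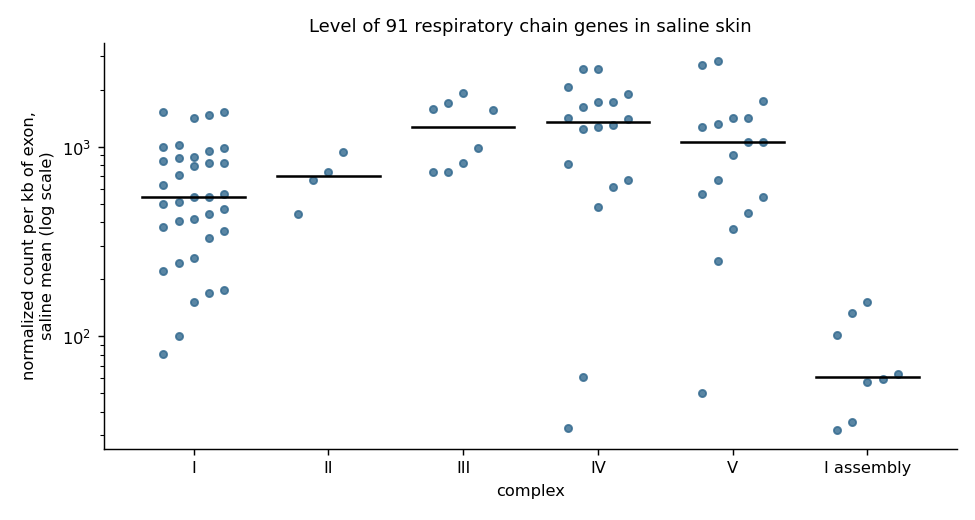
Normalized count per kb of exon in saline skin (mean of 10 mice, log scale) for the 91 members, by complex. Each point is a gene and each bar the median, which lies at 1354 for complex IV and at 61.2 for the assembly factors.

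Spread within groups also differed among the members. After group means were taken off, the residual SD on the log2 scale had a median of 0.21 over members (0.13 to 0.52), against 0.27 over all genes tested. Atp5a1 was the least variable member named here at 0.13, which is at percentile 7.83 of all genes. The isoforms were more variable, with 0.34 for Cox6a2, 0.38 for Cox8b, 0.40 for Ndufa4l2, 0.44 for Cox7a1 and 0.52 for Cox4i2.

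Bleomycin for 2 weeks changed few members. By the criteria of a fold change above 1.5 and an adjusted p below 0.05 (limma on log2(normalized count + 1), Benjamini-Hochberg over all genes), 2 of 91 members were called, where 16.7% of all genes were called. These were Ndufa4l2, which fell, and Cox6b2, which rose. At an adjusted p below 0.05 with no fold threshold, 7 members rose and 2 fell, where 17.4% of all genes rose, 18.2% fell and 35.6% passed in all. After 4 weeks the same 2 genes were called, where 17.9% of all genes were called, and 5 members rose and 2 fell by the adjusted p alone, where 18.4% of all genes rose, 18.2% fell and 36.6% passed in all. In limma with all mice both shares of members were below the background of the same comparison. At 2 weeks 67 of 91 members had a log2 fold change above 0, with a median of 0.09, where 50.3% of all genes were above 0. At 4 weeks 47 did, with a median of 0.01, where 49.9% of all genes were above 0. The median at 2 weeks rested largely on mouse 2 of that group, which had the highest value for many members: without it 52 members were above 0 and the median was 0.04. At 2 weeks edgeR and DESeq2 passed 23 and 21 members by adjusted p, while limma with 1 mouse left out passed 8 to 26. It passed 26 (24 rising) without saline mouse 2, 22 without 2-week mouse 4 or 8, 20 without saline mouse 6, 19 without saline mouse 1, 15 without 2-week mouse 3 and 14 without 2-week mouse 9. The share of all genes was counted in limma with all mice only, so these counts have no background of their own.

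Ndufa4l2 showed the largest change of any member in these comparisons. The gene lies at chr10:127514967-127517154 (mm10, + strand). Its normalized count was 686 at the lowest, 1163 at the median and 2403 at the highest in saline mice. At 2 weeks it was 334, 514 and 743, and at 4 weeks 286, 554 and 805. Every bleomycin-treated mouse was below the saline mean, while the groups overlapped through the lowest saline mouse, which was saline mouse 1. The log2 fold change was -1.26 ± 0.17 (SE, limma adjusted p = 1.02e-07) at 2 weeks and -1.23 ± 0.17 (limma adjusted p = 1.86e-07) at 4 weeks, and it lay between -1.36 and -1.13 when any of the 44 mice was left out. After 6 weeks of recovery the values ran from 1204 to 1524 with a median of 1489, all above every mouse given bleomycin for 4 weeks. The direct difference between these groups was 1.39 ± 0.20 on the log2 scale (limma adjusted p = 6.66e-07). At 10 weeks of recovery the values were 757 to 1348 with a median of 1056, and the difference from saline of -0.34 did not pass (limma adjusted p = 0.312).

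The partner Ndufa4 did not share this course. Its mean normalized count was 1965 ± 306 (SD, n = 10) in saline, 2336 ± 574 at 2 weeks and 2003 ± 190 at 4 weeks, and none of its comparisons with saline passed. The log2 ratio of Ndufa4l2 to Ndufa4 within a mouse had a mean of -0.62 in saline, -2.11 at 2 weeks and -1.88 at 4 weeks. All 10 mice at 2 weeks and 7 of 10 at 4 weeks were below every saline mouse, and both differences passed a two-sided permutation test adjusted over 20 tests (adjusted p = 0.0004 for both). After 6 weeks of recovery the ratio was -0.55, differing from saline by 0.06 (exact permutation test, adjusted p = 0.849, n = 6 and 10). At 10 weeks of recovery it was lower than in saline by 0.50 (exact permutation test, adjusted p = 0.0479, n = 8 and 10).

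Other cell markers moved over the same period. All 8 growing hair follicle markers found fell at 2 and 4 weeks, with a median log2 fold change of -8.20 and -7.16, and their summed normalized count ran from 2085 to 225887 in saline and from 34.2 to 5036 over both bleomycin groups. Of 7 macrophage markers, 5 were called higher at 2 weeks and 5 at 4 weeks. Of 6 white fat markers, 4 were called lower at 2 weeks and 3 at 4 weeks, and of 4 fibroblast markers 2 and 1. The fibroblast list was mixed, with 1 marker above 0 at 2 weeks (Lum, 0.30) and 2 at 4 weeks (the highest Col1a1, 0.30). Of 3 tested genes of the brown fat list, 2 were called lower at both times. Cidea had means of 899 in saline, 374 and 353 at 2 and 4 weeks, and 871 and 737 in recovery. The third, Dio2, went the other way, by 0.41 and 0.93 on the log2 scale, and was called higher at 4 weeks. Ucp1, the defining gene of that list, had 3 reads or fewer in all 44 mice. The changes of these genes therefore cannot be read as changes of brown fat. Between 4 weeks of bleomycin and 6 weeks of recovery, 8 of 8 hair follicle markers and 4 of 6 white fat markers were called higher and 5 of 7 macrophage markers lower. Within groups, mice with higher hair follicle markers had lower Ndufa4l2 (Pearson r = -0.58, Spearman rho = -0.53, permutation p = 2e-05 and 0.00032 over 44 mice after group means were taken off, and r = -0.56 without the 2 mice farthest out). This single relation was examined after the values were seen, and its sign is opposite to that of the change between groups. The exons of Ndufa4l2 overlap those of Shmt2, a mitochondrial serine enzyme on the opposite strand, and Shmt2 was lower by 0.42 ± 0.12 and 0.28 ± 0.12 on the log2 scale at 2 and 4 weeks (limma adjusted p = 0.00358 and 0.0497). The strand setting of the counting is not given in the sources used here, so reads of the pair cannot be told apart with certainty. The part of these markers' cell types and of Shmt2 in the fall of Ndufa4l2 was not tested.

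**Figure D2:**
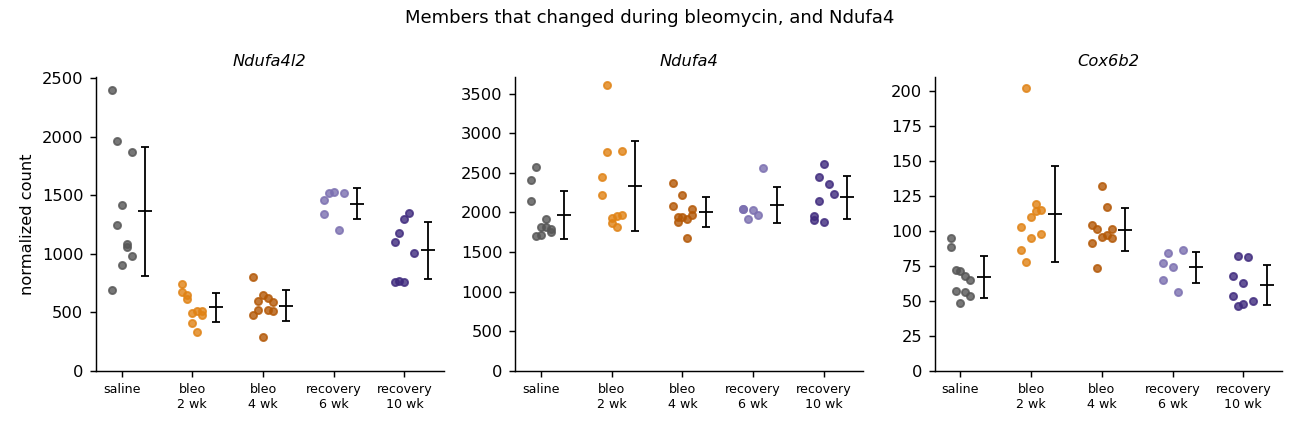
Normalized counts of Ndufa4l2, Ndufa4 and Cox6b2 in each mouse (points, 44 mice in 5 groups), with the mean and SD of each group beside them. Ndufa4l2 lies below 806 in every mouse given bleomycin for 2 or 4 weeks and between 1204 and 1524 after 6 weeks of recovery.

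Cox6b2 (chr7:4751792-4753094, mm10, - strand), a minor form beside Cox6b1, rose with bleomycin. Its normalized count was 48.6, 66.1 and 94.6 (lowest, median and highest) in saline, 78, 106 and 202 at 2 weeks, and 73.7, 98.9 and 132 at 4 weeks. All 20 bleomycin-treated mice were above the saline mean of 67.2, and the groups overlapped. The log2 fold change was 0.71 ± 0.13 at 2 weeks (limma adjusted p = 3.8e-05) and 0.59 ± 0.13 at 4 weeks (limma adjusted p = 0.000442). The latter was just over the fold threshold, and leaving out any of 6 mice (saline mouse 3, 4, 5 or 7 or 4-week mouse 8 or 9) took it under, with the adjusted p passing each time. In recovery the means were 73.8 ± 11.4 (SD, n = 6) and 61.3 ± 14.4 (SD, n = 8), and neither differed from saline by the adjusted p. Cox6b1 itself had means of 1810 ± 233 in saline, 2100 ± 512 at 2 weeks and 1928 ± 142 at 4 weeks, with no comparison passing.

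The other members that passed the adjusted p during bleomycin changed by less. Sdhd, a membrane anchor of complex II, rose by 0.38 ± 0.09 on the log2 scale at 2 weeks (limma adjusted p = 0.000893) and 0.26 ± 0.09 at 4 weeks (limma adjusted p = 0.0221). Its count was 1040, 1102 and 1498 in saline and 1174, 1368 and 2290 at 2 weeks. Ndufa13, an accessory complex I subunit, was higher by 0.28 ± 0.09 at 2 weeks and 0.25 ± 0.09 at 4 weeks (limma adjusted p = 0.00976 and 0.019). Ndufc2, an accessory subunit of the membrane arm, rose by 0.35 ± 0.10 at 2 weeks (limma adjusted p = 0.0064). Its count ran from 601 to 1008 in saline and from 763 to 1816 at 2 weeks, the top value again in mouse 2. Cox8b rose by 0.52 ± 0.16 and 0.45 ± 0.16 at 2 and 4 weeks (limma adjusted p = 0.0104 and 0.0245), and the latter call was lost without saline mouse 1 (0.37, adjusted p = 0.066). The assembly factor Ndufaf1 fell by 0.23 on the log2 scale at 2 weeks (limma adjusted p = 0.0301), a call lost without any of 5 mice. In limma 0 of the 17 complex V genes and 0 of the 8 complex III genes passed in either bleomycin group, where 35.6% and 36.6% of all genes passed. At an unadjusted p below 0.05 there were 6 and 1 at 2 weeks and 0 and 0 at 4 weeks. Of all 17037 genes tested, 7478 and 7655 had an unadjusted limma p below 0.05 at 2 and 4 weeks. At 2 weeks edgeR and DESeq2 each passed 3 complex V genes and 1 complex III gene, and at 4 weeks each passed 0 of both. The ATP synthase subunit Atp5b had means of 11424 in saline, 10142 at 2 weeks and 11187 at 4 weeks, with limma adjusted p of 0.0585 and 0.675.

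**Figure D3:**
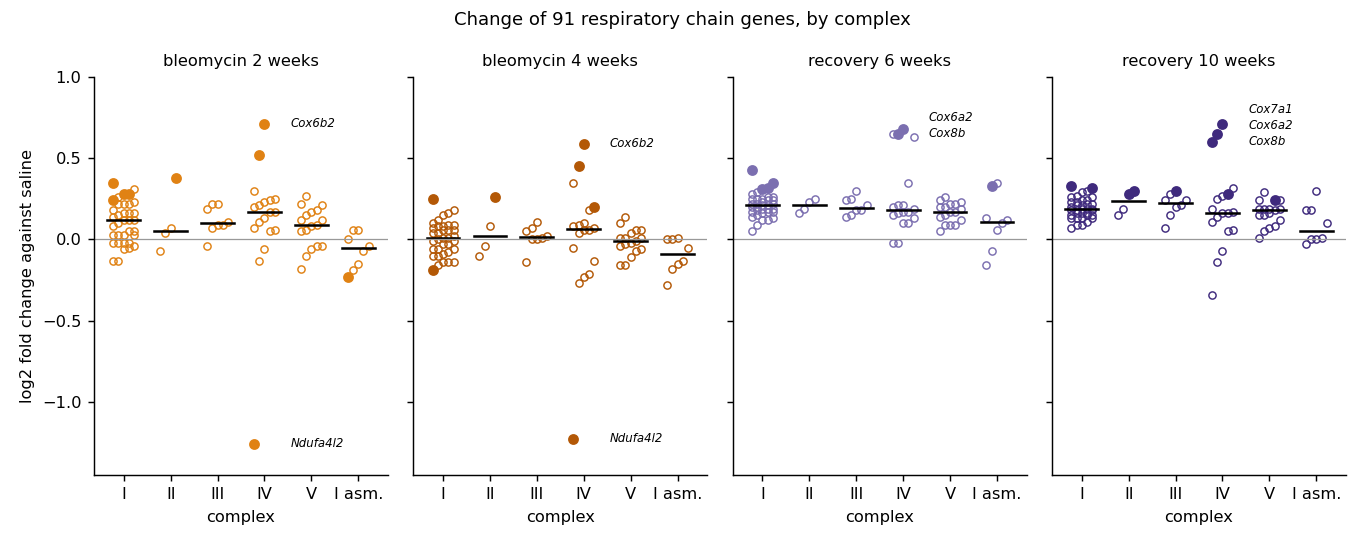
Log2 fold change against saline of the 91 members (points), by complex, for each treated group. Filled points passed an adjusted p below 0.05 and named genes also had a fold above 1.5, while bars are medians, which in complex I lie at 0.12, 0.01, 0.21 and 0.19 from left to right.

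Between 4 and 2 weeks of bleomycin no member was called, where 2.35% of all genes were called, and none passed the limma adjusted p alone, where 5.61% did. With edgeR and DESeq2 the count was also 0, and 9 members had an unadjusted p below 0.05 in limma, where 20.8% of all genes did (19 in edgeR and 20 in DESeq2). The median member difference of -0.10 was -0.03 without mouse 2 of the 2-week group.

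In recovery the members were higher as a body, by small amounts. After 6 weeks 87 of 91 members had a log2 fold change above 0 against saline, and after 10 weeks 85, where 49.6% and 50.2% of all genes did. The median member change was 0.19 and 0.18 on the log2 scale, and the medians by complex lay between 0.17 and 0.24 for complexes I to V at both times. The assembly factors had medians of 0.11 and 0.06. With the 6 isoforms Cox6a2, Cox7a1, Cox8b, Cox6b2, Cox4i2 and Ndufa4l2 set aside, 81 of 85 members were above 0 at each time, with medians of 0.19 and 0.18. The members share the same mice, so their common direction is not a count of independent observations. Over the scalings and tests tried the number above 0 ran from 86 to 89 at 6 weeks and from 83 to 89 at 10 weeks.

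Few single members passed. At 6 weeks Cox6a2 and Cox8b were called, where 5.04% of all genes were called, and at 10 weeks Cox7a1, Cox6a2 and Cox8b were, where 3.05% of all genes were called. By the adjusted p alone 7 members rose and 0 fell at 6 weeks, where 5% of all genes rose, 4.09% fell and 9.08% passed in all. At 10 weeks 10 rose and 0 fell, where 3.54% of all genes rose, 2.3% fell and 5.83% passed in all. The count at 6 weeks was 2 without mouse 5 of that group and 21 without mouse 2 of the 2-week bleomycin group, which enters through the shared estimate of spread. It was 13 and 11 without saline mouse 2 or 6. At 10 weeks it was 18 without mouse 2 of the 2-week group, 4 without 10-week mouse 4 or 7, 5 without mouse 3, and 6 without mouse 2 or saline mouse 5. Those passing at 6 weeks included Ndufv1, a catalytic subunit of complex I (0.31 ± 0.07, limma adjusted p = 0.00543), Ndufa13 (0.43 ± 0.10, limma adjusted p = 0.00445) and the assembly factor Ndufaf3 (0.33 ± 0.09, limma adjusted p = 0.0123). Ndufaf3 lost its call without mouse 5 (adjusted p = 0.064).

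Ndufv1 gave the clearest separation among the core subunits. Its normalized count was 1271, 1490 and 1613 (lowest, median and highest) in saline, 1684, 1803 and 2087 after 6 weeks of recovery, and 1586, 1815 and 2223 after 10 weeks. All 6 mice at 6 weeks were above every saline mouse, as they were for Cox6a2 and no other member, where 1.41% of all genes were separated in that direction. At 10 weeks the change was 0.32 ± 0.07 (limma adjusted p = 0.00322) and all 8 mice exceeded the saline mean. The NADH-side partner Ndufs1 changed less, by 0.05 and 0.22 on the log2 scale (limma adjusted p = 0.811 and 0.165). Sdha and Sdhb, the catalytic subunits of complex II, rose at 10 weeks by 0.30 ± 0.07 and 0.28 ± 0.08 (limma adjusted p = 0.0113 and 0.0202), the call of Sdhb being lost without 10-week mouse 4 or 7 (adjusted p = 0.0527 and 0.058). In complex III, Uqcrc2, a core subunit, rose by 0.30 ± 0.08 (limma adjusted p = 0.0152), and in complex V, Atp5j, a stalk subunit, by 0.24 ± 0.07 (limma adjusted p = 0.0407), a call lost without any of 12 mice. The exons of Atp5j overlap those of Gabpa on the opposite strand. Those of Ndufs1 overlap Eef1b2 (mean normalized count 5560) and those of Ndufaf3 overlap Impdh2 (1173), also on the opposite strand. Exons of 32 members overlap those of another gene.

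Among the members that passed, the muscle isoforms had the largest changes in recovery. Cox4i2 changed by 0.65 at 6 weeks without passing (limma adjusted p = 0.106). Cox6a2 (chr7:128205435-128206387, mm10, - strand) had a normalized count of 559, 1212 and 1512 (lowest, median and highest) in saline, 1553, 1675 and 2871 after 6 weeks and 1177, 1854 and 2564 after 10 weeks. The first 2 of these groups did not overlap. The log2 fold changes were 0.68 ± 0.17 (limma adjusted p = 0.00799) and 0.65 ± 0.16 (limma adjusted p = 0.00766). Cox7a1 (chr7:30184144-30186078, mm10, + strand) had 141, 261 and 367 in saline, 321, 362 and 629 after 6 weeks and 246, 438 and 609 after 10 weeks, and it overlapped in both. Its log2 fold changes were 0.63 ± 0.22 (limma adjusted p = 0.0594) and 0.71 ± 0.20 (limma adjusted p = 0.0292). Cox8b (chr7:140898945-140900446, mm10, - strand) had 340, 576 and 955 in saline, 690, 884 and 1211 after 6 weeks and 578, 913 and 1246 after 10 weeks. Its log2 fold changes were 0.65 ± 0.19 (limma adjusted p = 0.0213) and 0.60 ± 0.17 (limma adjusted p = 0.0295).

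These calls rest on few mice. Without saline mouse 1, which had the lowest count of all saline mice for the 3 muscle isoforms, no member met both criteria at 6 or 10 weeks. The values of Cox6a2 were then 0.57 and 0.54 (limma adjusted p = 0.0161 and 0.0138), those of Cox8b 0.57 and 0.51 (0.0468 and 0.0556) and that of Cox7a1 at 10 weeks 0.62 (0.054). Without mouse 5 of the 6-week group, the highest of its group for all 3 genes, Cox6a2 and Cox8b did not pass at 6 weeks (adjusted p = 0.0584 and 0.0934). At 10 weeks the calls of Cox7a1 and Cox8b were lost in 6 and 7 of 44 omissions, among them 10-week mice 2, 3, 4 and 7.

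The widely expressed partners stayed nearer to saline. Cox6a1 had means of 1455 ± 359 in saline, 1407 ± 117 (n = 6) after 6 weeks and 1369 ± 187 (n = 8) after 10 weeks. Cox7a2 had 1206 ± 227, 1280 ± 103 and 1311 ± 89.9, and Cox8a had 1598 ± 419, 1543 ± 143 and 1626 ± 110. None of them passed in any comparison with saline, and the 95% interval of the change of Cox6a1 at 10 weeks ran from -0.33 to 0.20 on the log2 scale. The log2 ratio within a mouse was compared by two-sided permutation tests, exact for the recovery groups and adjusted over 20 tests. For Cox6a2 over Cox6a1 it was higher than saline by 0.70 at 6 weeks (exact, adjusted p = 0.011) and 0.72 at 10 weeks (exact, adjusted p = 0.0375), with 4 of 6 and 5 of 8 mice above every saline mouse. For Cox7a1 over Cox7a2 the differences were 0.53 (exact, adjusted p = 0.015) and 0.57 (exact, adjusted p = 0.0422). Without saline mouse 1 and mouse 2 of the 2-week group the 10-week differences of these pairs were 0.53 and 0.43 and no longer passed. For Cox8b over Cox8a the ratio was higher at 4 weeks of bleomycin by 0.66 (permutation test, adjusted p = 0.00747) and at 6 weeks of recovery by 0.67 (exact, adjusted p = 0.00749), and did not pass at 10 weeks (0.54, exact, adjusted p = 0.0681). Cox4i2 over Cox4i1 did not pass in any of 4 comparisons, the smallest adjusted p being 0.083 at 6 weeks of recovery (0.44, exact).

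**Figure D4:**
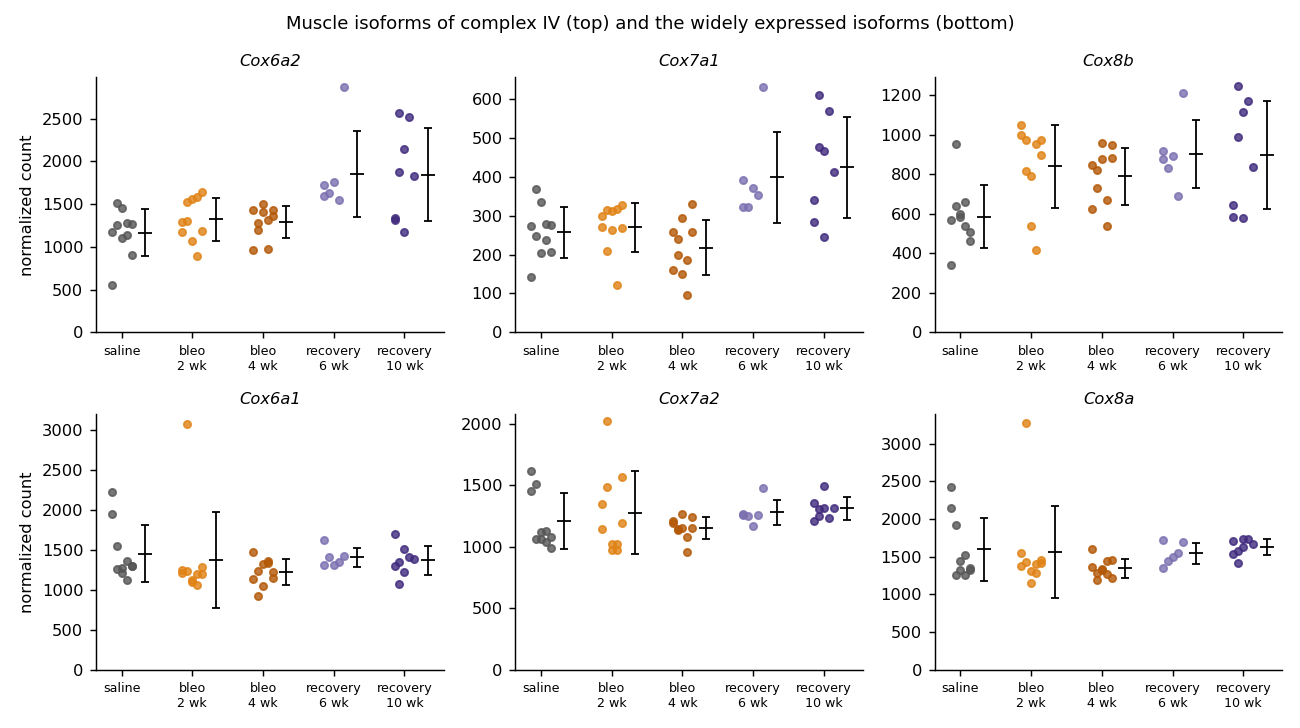
Normalized counts of Cox6a2, Cox7a1 and Cox8b (top) and of Cox6a1, Cox7a2 and Cox8a (bottom) in each of 44 mice, with mean and SD. Recovery mice for Cox6a2 lie between 1177 and 2871, and those for Cox6a1 between 1075 and 1697, within the saline range of 1128 to 2232 except for the lowest.

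The level of muscle marker RNA in the biopsy moved with these genes. After group means were taken off, the muscle marker level (mean log2 normalized count of 13 genes) was related to Sdha (Pearson r = 0.86, Spearman rho = 0.82), Cox7a1 (0.78 and 0.75), Cox6a2 (0.77 and 0.77) and Cox8b (0.68 and 0.61) over 44 mice. Permutation within groups, adjusted over 11 genes, gave p = 5.5e-05 (the smallest that 100000 permutations allowed here) for r of Sdha and Cox7a1, 7.33e-05 for Cox6a2 and 8.25e-05 for Cox8b. With the 2 most distant mice in marker level left out, these r were 0.87, 0.79, 0.83 and 0.71. Within single groups r ran from 0.75 to 0.98 for Sdha, 0.70 to 0.98 for Cox7a1, 0.45 to 0.97 for Cox6a2 and 0.49 to 0.95 for Cox8b. Ndufs1, Uqcrc1 and Atp5b had r of 0.53, 0.44 and 0.40 (adjusted permutation p = 0.00104, 0.00296 and 0.00339). The widely expressed isoforms Cox6a1 and Cox8a ran the other way (r = -0.62 for both, adjusted permutation p = 0.000858 and 0.00104), with r of -0.37 and -0.35 without the 2 farthest mice, saline mouse 1 and mouse 2 of the 2-week group. Within single groups r ran from -0.86 to 0.08 for Cox6a1 and from -0.79 to 0.30 for Cox8a, being most negative in saline and at 2 weeks. Cox4i1 (r = -0.20) and Cox7a2 (r = -0.36) did not pass (adjusted permutation p = 0.238 and 0.0554).

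Between groups the summed muscle markers overlapped, running from 109536 to 371506 in saline, 250946 to 434889 after 6 weeks and 241341 to 504341 after 10 weeks. Of the 13 markers, 10 were above 0 against saline at 6 weeks and 13 at 10 weeks, with medians of 0.22 and 0.27 on the log2 scale, and 1 was called at each time. The slow-fibre markers rose far more. All 6 (Myh7, Tnnc1, Tnnt1, Tnni1, Myl2 and Myl3) were called higher at both recovery times with median log2 fold changes of 3.13 and 3.39, and 3 and 5 of them were called at 2 and 4 weeks of bleomycin. Their summed normalized count was 61.8 to 480 in saline, 583 to 2587 at 6 weeks and 393 to 16867 (median 875) at 10 weeks. These sums were far under that of the 13 skeletal muscle markers. Ucp1, the defining gene of brown fat, had 3 reads or fewer in all 44 mice, while Cidea, Elovl3 and Dio2 of that list had over 3 reads in every mouse (means of 622, 496 and 118). Of the cardiac list Nppa had 3 reads or fewer in all 44 mice and Myh6 in 42, while Tnni3 had over 3 in every mouse (mean of 36.9). The part of muscle marker level and fibre type in the recovery values of Cox6a2, Cox7a1, Cox8b and Sdha was not tested.

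**Figure D5:**
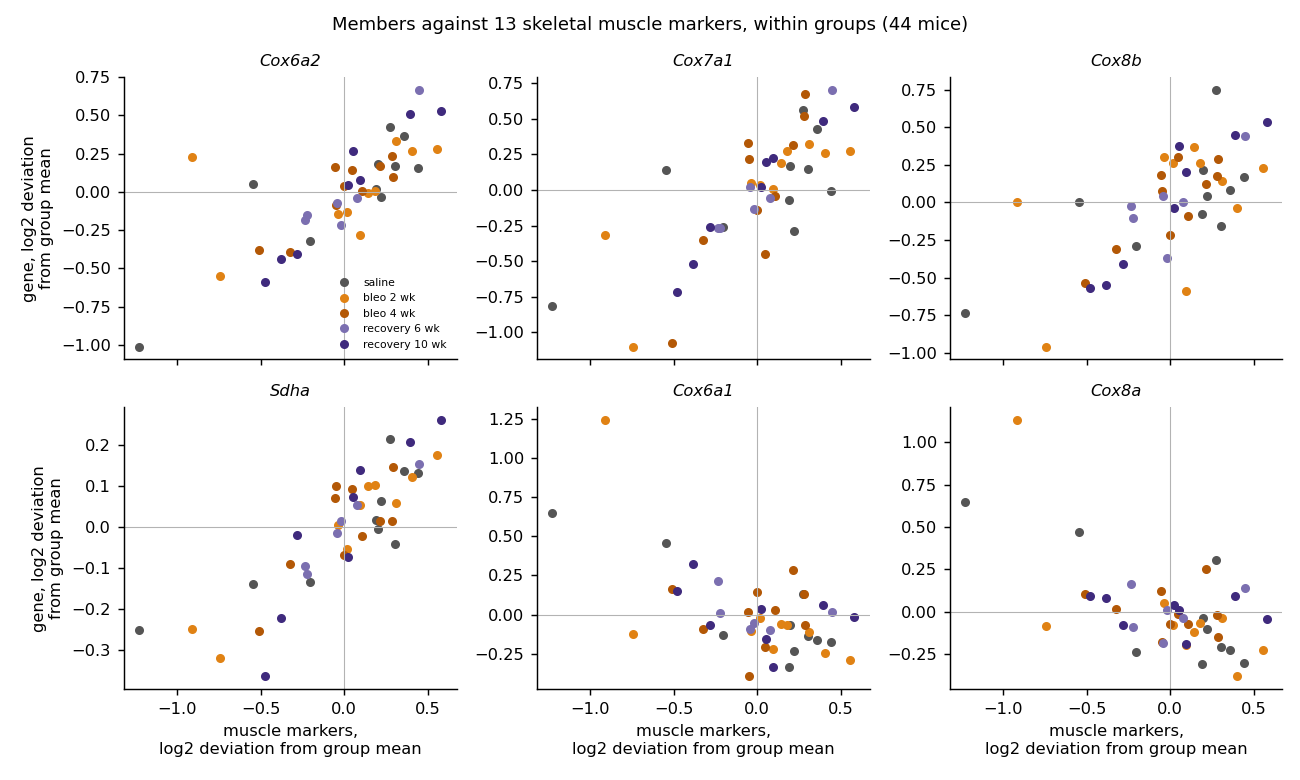
Deviation from the group mean (log2) of 6 members against that of 13 skeletal muscle markers, with each point a mouse coloured by group. Sdha, Cox7a1, Cox6a2 and Cox8b rise with the markers (r = 0.86, 0.78, 0.77 and 0.68), and Cox6a1 and Cox8a fall (r = -0.62 for both).

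The direct comparison of 6 weeks of recovery with 4 weeks of bleomycin gave 19 members by the adjusted p in limma, 17 in edgeR and 21 in DESeq2. The genes called were Ndufa4l2 and Cox7a1, where 11.9% of all genes were called, and 18 members rose and 1 fell by the adjusted p alone, where 11.6% of all genes rose, 13.4% fell and 25% passed in all. Without mouse 5 of the recovery group 8 rose and 1 fell, and without mouse 2 of the 2-week group 33 rose and 1 fell. Cox7a1 had a count of 97.1 to 329 at 4 weeks of bleomycin and rose by 0.91 ± 0.22 (limma adjusted p = 0.00184). All mice after 6 weeks of recovery lay above all mice given bleomycin for 4 weeks in 6 members (Ndufa4l2, Cox6a2, Ndufa12, Ndufb3, Ndufv3 and Ndufaf3, named after their values were seen), where 4.44% of all genes did so. Of these Ndufv3, an accessory complex I subunit, rose by 0.42 ± 0.09 (limma adjusted p = 0.000827), from 637 to 813 at 4 weeks of bleomycin to between 841 and 1073, and Ndufb3 did not pass (0.29, limma adjusted p = 0.0905). Cox6b2 was the member that fell, by 0.44 on the log2 scale (limma adjusted p = 0.03), a call lost without any of 4 mice.

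Between 10 and 6 weeks of recovery no member was called, where 0.088% of all genes were called, and none passed the limma adjusted p alone, where 0.0939% did. In limma, edgeR and DESeq2 alike 1 member had an unadjusted p below 0.05, where 12% of all genes did in limma. In limma this was Ndufa4l2, lower at 10 weeks by 0.50 on the log2 scale.

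Of the 13 subunits encoded by mitochondrial DNA, 0 passed against saline at any time in limma or edgeR, while DESeq2 passed 3 at 4 weeks of bleomycin. At an unadjusted p below 0.05 limma had 0 and 3 at 2 and 4 weeks of bleomycin and 0 and 7 at 6 and 10 weeks of recovery. In the same order, 7478, 7655, 4230 and 3247 of all 17037 genes tested had an unadjusted limma p below 0.05. At 10 weeks of recovery all 13 were above 0, with a median of 0.29 on the log2 scale, where 50.2% of all genes were above 0. These 13 genes share the same mice and the same mitochondrial DNA, so their common direction is not a count of independent observations. Against 4 weeks of bleomycin, 5 of them rose by the adjusted p after 6 weeks of recovery, where 11.6% of all genes rose. The largest rise was that of mt-Nd2, a core subunit of complex I (0.53, limma adjusted p = 0.00608). Its count was 17480 to 26421 at 4 weeks of bleomycin and 29940 to 41065 at 6 weeks of recovery, so that the groups did not overlap.

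Among 38 assembly factors outside the Ndufaf genes, Acad9, which is needed to build complex I, fell with bleomycin. Its normalized count was 1740 to 2260 in saline, 1182 to 1617 at 2 weeks and 1055 to 1443 at 4 weeks, with no overlap with saline. The log2 fold changes were -0.57 ± 0.06 (limma adjusted p = 5.54e-10) and -0.75 ± 0.06 (limma adjusted p = 3.2e-13), and in recovery the means were 1857 ± 189 (n = 6) and 1837 ± 108 (n = 8). In all, 8 of the 38 rose and 3 fell at 2 weeks by the adjusted p, and 2 rose and 5 fell at 4 weeks. Of all genes 17.4% rose and 18.2% fell at 2 weeks, and 18.4% and 18.2% at 4 weeks. Coa7, a complex IV assembly factor, was the single factor that passed at 6 weeks of recovery (-0.39, limma adjusted p = 0.0259).

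Of 11 carrier genes tested, Ucp3, a mitochondrial carrier of skeletal muscle, rose most. Its count was 72.7 to 237 in saline and 312 to 719 at 2 weeks of bleomycin, without overlap, and 169 to 567 at 4 weeks. The log2 fold changes were 1.81 ± 0.20 (limma adjusted p = 1.42e-09) and 1.13 ± 0.20 (limma adjusted p = 1.95e-05), and at 10 weeks of recovery 0.75 ± 0.22 (limma adjusted p = 0.0302). The skeletal muscle markers at 2 weeks had a median change of -0.05 with none called. In the citric acid cycle, Cs, citrate synthase, fell by 0.28 and 0.32 on the log2 scale at 2 and 4 weeks (limma adjusted p = 0.000246 and 4.24e-05) and had a mean of 5002 ± 194 at 6 weeks of recovery beside 4948 ± 255 in saline. By the adjusted p, 0 of 18 cycle genes rose and 1 fell at 2 weeks of bleomycin, and 2 rose and 1 fell at 4 weeks. Of all genes 17.4% rose and 18.2% fell at 2 weeks, and 18.4% and 18.2% at 4 weeks. At 10 weeks of recovery 5 of 18 cycle genes rose by the adjusted p and none fell, where 3.54% of all genes rose and 2.3% fell. At 6 weeks 2 rose and none fell, with Idh3g highest (0.34, limma adjusted p = 0.0198), where 5% of all genes rose and 4.09% fell.

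Regulators of mitochondrial biogenesis mostly did not pass. Of 17, the nuclear receptor Esrrg rose at 2 weeks of bleomycin (0.61, limma adjusted p = 0.0347) and at 10 weeks of recovery (1.10, limma adjusted p = 0.00442), from 9.54 to 56 normalized counts in saline to between 38.1 and 108. Twnk, the mitochondrial DNA helicase, fell by 0.30 at 4 weeks of bleomycin and 0.28 at 6 weeks of recovery (limma adjusted p = 0.000177 and 0.0122). Of 17 fatty acid oxidation genes, 6 rose and 2 fell at 2 weeks of bleomycin, 3 rose and 4 fell at 4 weeks, and 2 and 6 rose with none falling at 6 and 10 weeks of recovery. Of 20 glycolysis genes, 2 rose and 4 fell at 2 weeks, 4 rose and 5 fell at 4 weeks, and 1 rose at each recovery time. Of all genes 17.4% rose and 18.2% fell at 2 weeks, 18.4% and 18.2% at 4 weeks, and 5% and 3.54% rose at 6 and 10 weeks of recovery.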

How the data were processed

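Poly(A) RNA of 44 skin biopsies was sequenced on a strand-marking library. Per the labels and the submitters' processing notes, the authors aligned reads with STAR 2.4.0 to mm10 and scaled counts with DESeq2 1.12.3. How reads were counted over genes, with which annotation and strand option, is not given in the sources used here. The deposited signal is a normalized count, the gene count divided by 1 size factor per mouse. Dividing by the step of each mouse gave whole reads for 100.0% of values (tolerance 0.01 read), with 8509094 to 15285577 reads per mouse, which limits precision for low genes only. Gene types and exon lengths came from the GENCODE annotation of mm10, matched for 98.9% of IDs.

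Genes with a mean above 3 (17037) were fitted with limma 3.58.1 (trend, R 4.3.3) on log2(normalized count + 1), with all 44 mice and 5 groups in 1 fit and Benjamini-Hochberg adjustment. Calls needed an adjusted p below 0.05 and a fold above 1.5. All comparisons with saline share the same 10 mice. Fold changes on this scale understate the change of low genes. Isoform ratios were compared by permutation of mice (100000 resamples, exact with fewer than 10 mice), and relations by permutation within groups. Alternatives were a pseudocount of 0.1, no filter or a stricter one, quantile and trimmed-mean scaling, only the groups compared, a replicate block, edgeR 4.0.16 and DESeq2 1.42.0 on the recovered reads, and leaving out mice. Leaving out each of the 44 mice and the hair follicle relation were added after seeing the data. Scripts were tested on simulated data.

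Named were the isoforms, a core gene or more per complex, the most changed passing member per complex and comparison with saline, genes beside the level cut, and the most changed passing gene of each other list. Members and lists were chosen with earlier results of these data known. Mice are separate animals, each counted once. Markers without a matching row are not reported here. No pair of mice had counts equal within sampling noise.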

Additional observations from a re-analysis of the deposited data

Results flagged for a closer look

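Among 33 named members in 5 groups (165 sets of mice), 29 held a mouse whose gap to its nearest neighbour, as a share of the group's range, was past Dixon's 95% value. Chance flags about 1 in 20 such sets. Mouse 2 of the 2-week bleomycin group was the highest in Cox6a1 (0.824), Atp5g3 (0.783), Atp5g2 (0.773), Cox4i1 (0.762), Cox8a (0.713), Cox6b1 (0.711), Ndufa13 (0.688), Cox5a (0.675), Cox7a2l (0.609), Cox6b2 (0.556) and Ndufc2 (0.518). Mouse 5 of the 6-week recovery group was the highest in Cox6a2 (0.8), Sdhb (0.794), Ndufa4 (0.789), Sdhd (0.783), Uqcrfs1 (0.774), Uqcrc2 (0.72), Cox7a1 (0.702), Sdhc (0.694), Cox7a2 (0.636), Atp5a1 (0.636) and Atp5g1 (0.634). Mouse 6 of that group was the highest in Cox6a1 (0.634). Saline mouse 1 was the lowest in Cox6a2 (0.48) and the highest in Sdhb (0.478), and saline mouse 2 the highest in Uqcrc2 (0.52). In the bleomycin groups, 2-week mouse 4 was the lowest in Cox7a1 (0.552), 4-week mouse 3 the lowest in Ndufa4l2 (0.492) and 4-week mouse 6 the highest in Cox7a2l (0.486).

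The change from saline at 6 weeks of recovery differed from that at 4 weeks of bleomycin in 9 of the 33 named members, by the limma contrast of the 2 groups. In that contrast 25% of all genes and 20.9% of the 91 members passed the adjusted p, so the count is near the background. The difference on the log2 scale was 1.39 for Ndufa4l2 (adjusted p = 6.66e-07), 0.91 for Cox7a1 (0.00184), 0.50 for Cox6a2 (0.0249), 0.32 for Ndufaf3 (0.00542), 0.30 for Sdhc (0.0127), 0.29 for Atp5j (0.00646), 0.26 for Sdhb (0.0167), 0.23 for Ndufv1 (0.0189) and -0.44 for Cox6b2 (0.03). All 6 mice after 6 weeks of recovery were above the mean at 4 weeks of bleomycin for each of the rising genes.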

How the results depend on the processing

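Over 132 gene-level results and 1584 alternative values, 1500 kept their direction and side of the threshold, 40 gained and 17 lost the call, 27 moved and 0 reversed. With no fold threshold the members called numbered 9 at 2 weeks and 7 at 4 weeks of bleomycin, 7 and 10 at 6 and 10 weeks of recovery, and 19 in the contrast of 6-week recovery with 4-week bleomycin. With saline mouse 1 and 2-week bleomycin mouse 2 both left out, 0 were called at 6 weeks of recovery and 1 at 10 weeks, and with only the groups compared 1 was called at 10 weeks. Leaving out any 1 of 44 mice gave 2 to 3 members called at 2 weeks of bleomycin, 1 to 2 at 4 weeks, 0 to 3 at each recovery time, 2 to 2 in that contrast, and 0 to 0 in the other two comparisons. By the adjusted p alone, with only the groups compared, 5 members passed at 2 weeks of bleomycin, 11 and 6 in recovery, and 39 in that contrast, while with both mice left out 21 and 25 passed in recovery and 36 in that contrast. Shares of all genes were counted in limma with all 44 mice only, so member counts under other settings have no background beside them. Without both mice the isoform ratio differences from saline were 0.53 for Cox6a2 over Cox6a1 and 0.43 for Cox7a1 over Cox7a2 at 10 weeks of recovery (no longer passing), 0.55 for Cox8b over Cox8a at 2 weeks (now passing), -0.02 for Cox7a1 over Cox7a2 at 2 weeks and -0.05 for Ndufa4l2 over Ndufa4 at 6 weeks of recovery, and r to the muscle markers was 0.24 for Cox4i1, 0.03 for Cox7a2 and -0.32 for Cox8a. The cause of these changes was not tested. At 4 weeks the number of members above 0 was 47, with 56 under quantile scaling and 44 in DESeq2. With the replicate number as a block, 2, 2, 3 and 3 members were called against saline in time order. Same-numbered mice did not deviate together (78 pairs, median r = -0.00221, 18 over 0.1, 4 of 44 mice correlating best with their own number), so the numbers do not pair the mice.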
